A study of Mus musculus with 6 samples.

Results

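The interleukin 2 receptor chains and the other receptors of the common gamma family were followed across 6 arrays of sorted mouse bone marrow cells. The members were the 9 receptor chain genes Il2ra, Il2rb, Il2rg, Il4ra, Il7r, Il9r, Il15ra, Il21r and Crlf2, with every probe set that the platform's annotation ties to them. This gave 14 probe sets of 8 genes, of 45037 probe sets and 18193 genes in all. Il2rg was not analysed here, because the annotation used lists no probe set for it. Il4ra had 3 probe sets, Il2ra, Il2rb, Il7r and Il15ra had 2 each, and Il9r, Il21r and Crlf2 had 1 each.

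The cells were LSK cells, that is lineage-negative, cKit-positive and Sca1-positive, a fraction in which blood stem cells and multipotent progenitors are found. The 3 mice labelled N1IC carried lox-stop-lox N1-IC together with Mx1-cre+, and the 3 mice labelled WT carried Mx1-cre+ alone. N1-IC is the inner domain of the receptor Notch1, which signals without ligand, kept silent by a stop cassette until the recombinase Cre removes it. Mx1-cre is switched on by interferon, and WT mice also carried it and received the inducer. All mice were injected 3 times from the age of 21 days with polyIC, a double-stranded RNA mimic that induces interferon, with 20 mcg per g each time, and were 5 weeks old at the sort, 2 weeks after the last injection. Mx1-cre acts in many tissues beside marrow, and the share of sorted cells that had recombined was not measured in the values used here. The treatment text in the labels names floxed Ncstn alleles, while the genotype and source labels name N1-IC, and the groups follow genotype and source. The 3 N1IC mice were female, and the WT mice were 2 males and 1 female.

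In most receptors of this family the common gamma chain encoded by Il2rg joins private chains, or chains shared with another receptor. This brings the kinases JAK1 and JAK3 together, which then activate STAT factors. Il2ra encodes CD25, which raises the affinity for interleukin 2 without signalling itself and marks a stage of early thymocytes as well as regulatory and activated T cells. Il7r encodes CD127, which early lymphoid progenitors need, and it also pairs with the product of Crlf2 to bind thymic stromal lymphopoietin.

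Promoter windows are shown for Il2ra, Il4ra and Il21r, which were called different between the groups in the gene test below. That of Il7r is shown too, though Il7r was not called as a gene and only its dimmer probe set passed. Each window holds the 250 bases before an annotated transcript start, taken from RefSeq on GRCm38.p6 and written 5′ to 3′ on the gene's own strand. Windows were found for 8 of the 9 members, and Il2rb, which had none, was not searched. Capitals mark any match to TTCNNNGAA, a motif of STAT factors, or to TGGGAA, a motif of the Notch partner RBPJ, searched on both strands. The windows are chr2:11642542-11642791 on the plus strand for Il2ra, chr15:9529877-9530126 on the minus strand for Il7r, chr7:125552021-125552270 on the plus strand for Il4ra and chr7:125603179-125603428 on the plus strand for Il21r.
Il2ra: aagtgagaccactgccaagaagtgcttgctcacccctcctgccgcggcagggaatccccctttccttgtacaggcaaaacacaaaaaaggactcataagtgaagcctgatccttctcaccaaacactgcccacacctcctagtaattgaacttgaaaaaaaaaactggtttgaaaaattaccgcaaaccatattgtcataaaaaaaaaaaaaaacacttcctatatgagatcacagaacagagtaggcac
Il7r: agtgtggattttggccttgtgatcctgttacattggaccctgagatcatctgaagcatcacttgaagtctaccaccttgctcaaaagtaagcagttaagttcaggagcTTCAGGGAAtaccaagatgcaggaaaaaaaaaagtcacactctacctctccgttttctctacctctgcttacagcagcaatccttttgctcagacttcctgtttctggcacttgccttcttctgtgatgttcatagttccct
Il4ra: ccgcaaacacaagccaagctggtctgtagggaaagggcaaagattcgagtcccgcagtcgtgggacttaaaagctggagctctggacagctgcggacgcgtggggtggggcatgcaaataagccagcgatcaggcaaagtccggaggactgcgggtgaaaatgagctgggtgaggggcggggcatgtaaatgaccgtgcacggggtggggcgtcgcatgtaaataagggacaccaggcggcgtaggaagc
Il21r: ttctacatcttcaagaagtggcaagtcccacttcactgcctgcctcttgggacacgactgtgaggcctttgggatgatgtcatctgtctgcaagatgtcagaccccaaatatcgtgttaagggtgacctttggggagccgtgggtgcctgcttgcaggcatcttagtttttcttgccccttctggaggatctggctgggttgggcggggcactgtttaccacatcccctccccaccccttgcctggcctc
The Il7r window held TTCAGGGAA, which lies from 142 to 134 bases before the start. No other window found for the members held the STAT motif, which was present in 7.02% of all 32851 windows. The RBPJ motif was in the windows of Il2rg and Crlf2 and in 21.6% of all windows. The windows of Il2ra, Il4ra and Il21r held neither set of letters.

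Among the 8 genes measured, Il2ra rose more than 100-fold in N1IC, Il4ra and Il21r fell by a little under 2-fold, and the other members did not pass the test. Each gene was represented by its brightest probe set, and limma with Benjamini-Hochberg adjustment over all genes called 1 of 8 receptor genes higher and 2 of 8 lower at an adjusted threshold of 0.05. Over all genes, 3.47% were called higher and 8.31% lower, 11.8% in all. The N1IC arrays lay wholly above the WT arrays for 3 of the 8 genes and wholly below for 3, against 13.1% and 19.7% of all genes, so that 6 of 8 did not overlap, against 32.8% of all genes. With every probe set tested on its own, 3 of 14 receptor probe sets were called higher and 2 lower, against 3.16% and 4.76% of all probe sets and 7.92% in either direction. The groups did not overlap for 9 of the 14, against 29.5% of all probe sets. The median log2 fold change was -0.02 over the 8 receptor genes and -0.01 over all genes.

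**Figure D1:**
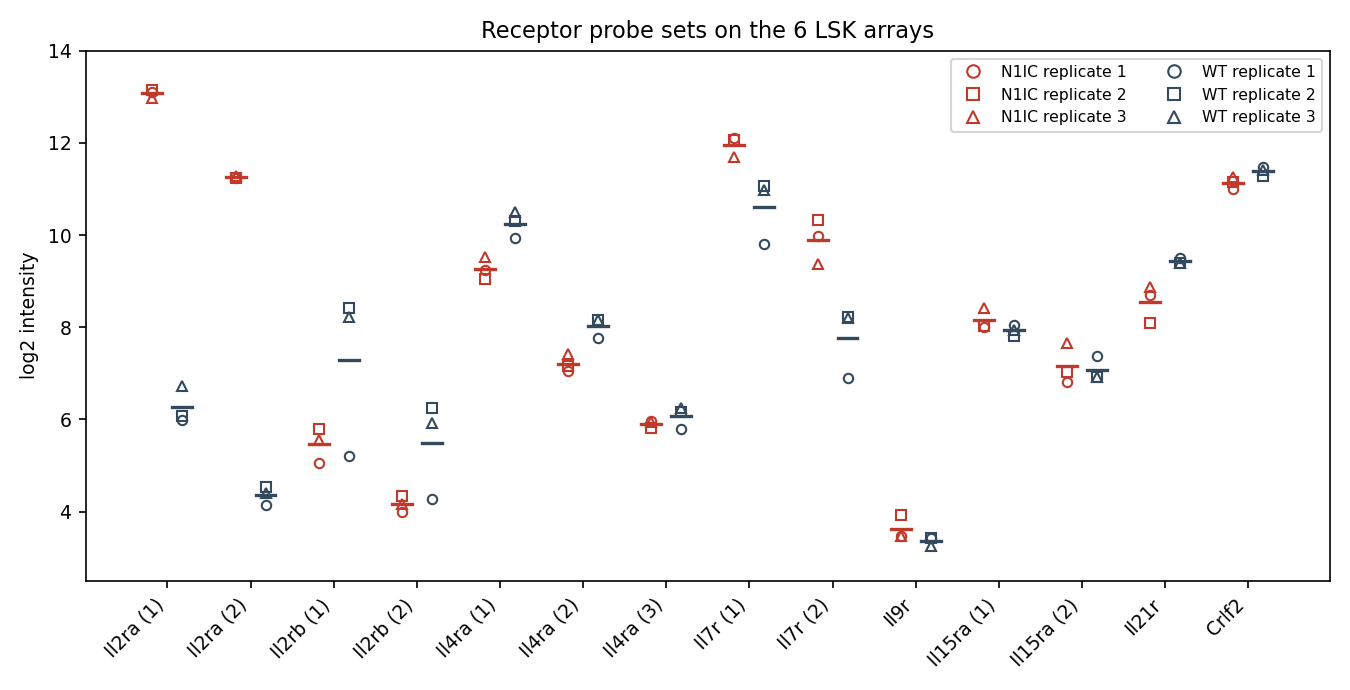
Log2 intensity of the 14 receptor probe sets on each array, N1IC at the left (red) and WT at the right (dark) of each pair, with symbols for replicates and bars for group means; numbers in brackets count the probe sets of a gene from the brightest. Both Il2ra probe sets lie above 11 on every N1IC array and below 7 on every WT array, and WT replicate 1 lies below the other WT arrays for Il2rb and Il7r.

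**Figure D2:**
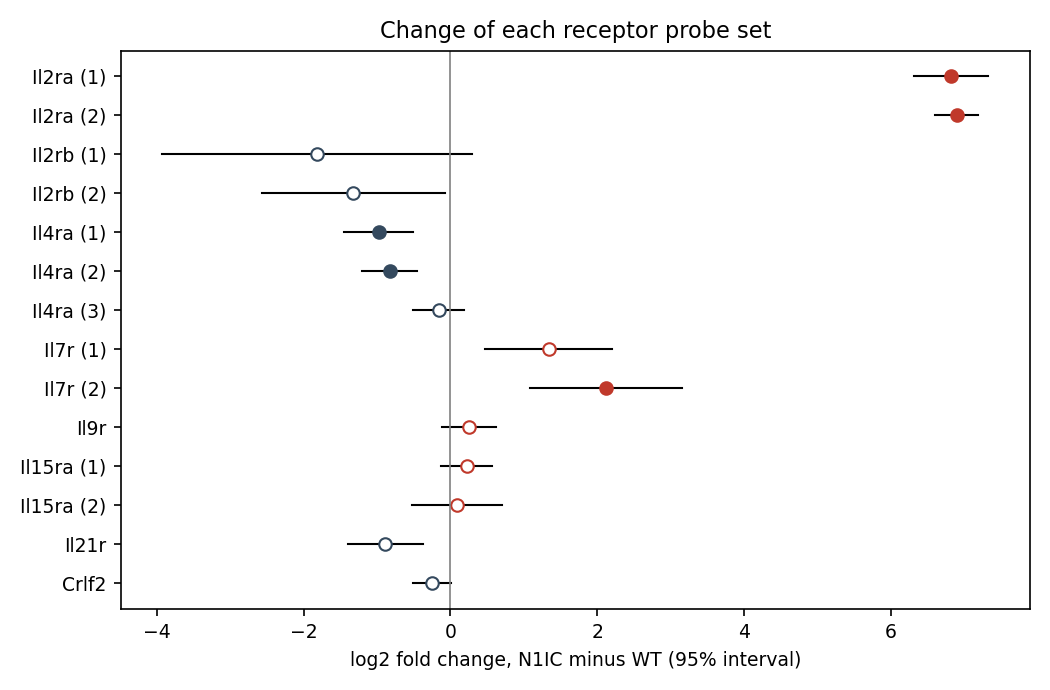
Log2 fold change of each receptor probe set, N1IC minus WT, with 95% intervals of limma; filled points passed the adjusted threshold over all probe sets. The filled points are both Il2ra probe sets and the dimmer Il7r probe set, to the right of 0, and the 2 brighter Il4ra probe sets, to the left.

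Il2ra showed the widest separation of the family. On its brighter probe set it stood at 13.11, 13.15 and 12.98 log2 intensity in N1IC, against 5.99, 6.06 and 6.73 in WT. The dimmer probe set gave 11.25, 11.25 and 11.27 in N1IC, against 4.13, 4.54 and 4.41 in WT. Every N1IC array thus lay far above every WT array on both, and the 3 N1IC arrays were within 0.16 and 0.03 of each other. The log2 fold change was 6.82 (SE 0.21, 3 arrays a group) on the brighter probe set, with a 95% interval from 6.31 to 7.33 when probe sets were tested on their own. It was 6.89 (SE 0.12) on the dimmer one, with an interval from 6.60 to 7.19. The adjusted p of limma over all probe sets was 0.000249 and 8.1e-05. As a gene, Il2ra kept its call in all 6 fits that left out 1 array, where the limma adjusted p ranged up to 0.00277. No detection calls were used here, so whether the WT level lay above background was not tested.

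Il2rb encodes the signalling beta chain shared by the receptors of interleukins 2 and 15. It stood at 5.07, 5.79 and 5.55 in N1IC, against 5.21, 8.41 and 8.21 in WT, on its brighter probe set. The dimmer probe set gave 3.99, 4.33 and 4.16 in N1IC, against 4.27, 6.25 and 5.93 in WT. WT replicate 1 lay at the N1IC level on both, while the other WT arrays lay higher, so the groups overlapped. The log2 fold change was -1.81 (SE 0.86), and Il2rb was not called (adjusted p = 0.25 by limma over all genes). Without WT replicate 1 it was -2.85 (adjusted p = 0.00359 by limma), while leaving out any other array gave an adjusted p between 0.351 and 0.496.

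WT replicate 1 also stood apart for marker genes of several cell types. It lay more than 1 log2 unit below both other WT arrays for 2 of the 8 receptor genes (Il2rb and Il7r), against 2.21% of all genes. The same held for 5 of 9 genes of natural killer cells, which depend on the chain encoded by Il2rb, and for 5 of 12 early T and 3 of 8 mature T cell genes. It held for 8 of 11 neutrophil and monocyte genes and 6 of 9 dendritic genes, so the split was not particular to natural killer genes. Ncr1, an activating receptor that defines these cells, stood at 3.80, 5.13 and 4.34 in N1IC, against 3.96, 6.71 and 6.54 in WT. Eomes, a transcription factor of these cells, stood at 4.52, 5.63 and 4.05 in N1IC, against 4.402, 7.82 and 7.18 in WT. The surface receptors Klrk1 and Klrd1 gave 4.87 and 7.94 on WT replicate 1, and at least 7.95 and 10.21 on the other WT arrays. These 4 genes were chosen after their values were seen, and none passed the test with all arrays. Klra1, Klra8, Nkg7 and Prf1 of the same list showed no such gap. Of 9 natural killer genes measured, 1 (Nkg7, a granule protein) was higher and none lower with all arrays, and 4 were lower and none higher without WT replicate 1. Over all genes, 3.47% were higher and 8.31% lower with all arrays. Without WT replicate 1, 509 of 18193 genes were higher and 1420 lower. The Nkg7 call was lost without any 1 array, and 3 of the 9 genes had an unadjusted p under 0.05 with all arrays. The summed linear intensity of the 9 genes ranged from 10210 to 10720 in N1IC and from 8225 to 11020 in WT. Most of that sum came from Nkg7, at a mean log2 intensity of 13.13 in N1IC and 12.76 in WT. Prf1 came next, at 10.09 and 10.10, so the sum says little about the dimmer genes. The median log2 fold change of the list was -0.55. The part of such cells in the Il2rb values was not tested. In bulk samples, fewer cells of a type and less RNA per cell cannot be told apart.

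**Figure D3:**
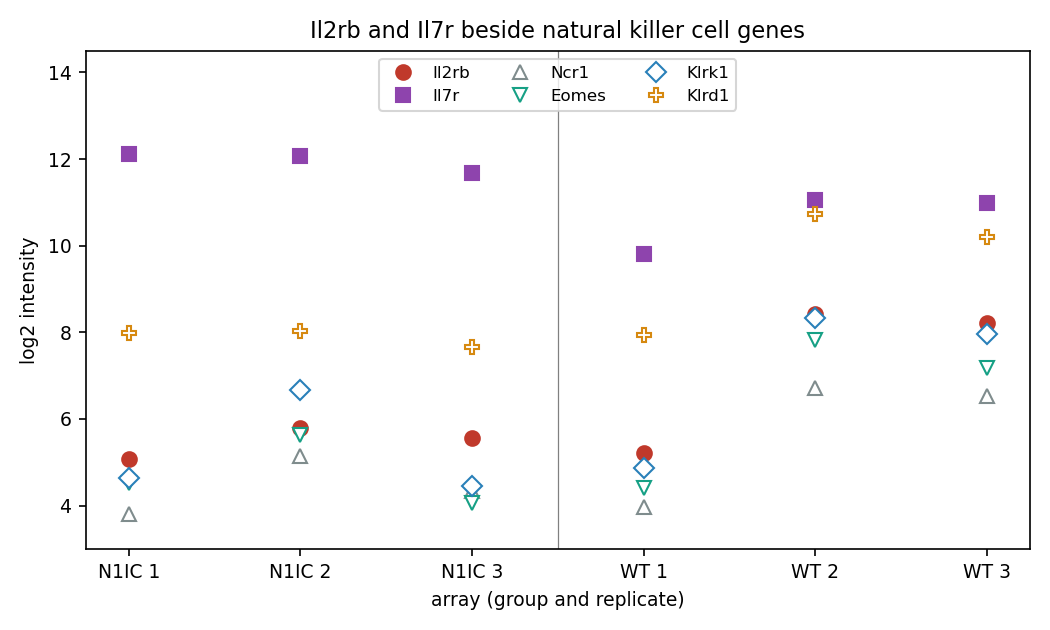
Log2 intensity on each array for Il2rb and Il7r (filled) and 4 natural killer cell genes (open), with N1IC arrays left of the line and WT arrays right of it. WT replicate 1 lies below the other WT arrays for all 6 genes, and only Il7r lies higher on every N1IC array than on every WT array.

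Il7r was higher on every N1IC array than on any WT array, though only its dimmer probe set passed the test. The brighter probe set stood at 12.11, 12.07 and 11.69 in N1IC, against 9.81, 11.07 and 10.98 in WT. The dimmer one stood at 9.97, 10.32 and 9.37 in N1IC, against 6.90, 8.22 and 8.20 in WT. WT replicate 1 was again the lowest array on both. The gene's log2 fold change was 1.34 (SE 0.35, limma adjusted p = 0.0656 over all genes). The dimmer probe set gave 2.12 (SE 0.43, adjusted p = 0.0381 over all probe sets). Without WT replicate 1 the gene passed, with a smaller log2 fold change of 0.93 (adjusted p = 0.0251). The mean of both probe sets also passed, at 1.73 (adjusted p = 0.0347). The call of the dimmer probe set was lost without any 1 array other than WT replicate 1, at adjusted p between 0.0657 and 0.121. Against the WT female alone, which the fit with sex as a covariate amounts to, the gene gave 0.89 (adjusted p = 0.434).

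Crlf2, the chain that pairs with the product of Il7r for thymic stromal lymphopoietin, differed little between the groups. It stood at 11.00, 11.16 and 11.26 in N1IC, against 11.48, 11.28 and 11.41 in WT, with all N1IC arrays just below all WT arrays. The log2 fold change was -0.25 (SE 0.10, 95% interval from -0.50 to -0.004), and the limma adjusted p over all genes was 0.182. The difference changed sign, to 0.07, when arrays were centred on the median of the genes tested.

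Il4ra, the chain of interleukin 4 and 13 receptors, and Il21r, the private chain for interleukin 21, were lower on every N1IC array than on any WT array. Il4ra stood at 9.24, 9.04 and 9.53 in N1IC, against 9.93, 10.31 and 10.50 in WT, on its brightest probe set. It was 1.97-fold lower (log2 fold change -0.98, SE 0.19, limma adjusted p = 0.0268 over all genes). Its next probe set stood at 7.04, 7.16 and 7.41 in N1IC, against 7.78, 8.16 and 8.16 in WT, with a log2 fold change of -0.83 (SE 0.15). The dimmest stood at 5.97, 5.81 and 5.94 in N1IC, against 5.78, 6.17 and 6.25 in WT, where the groups overlapped and the log2 fold change was -0.16 (SE 0.14). Il21r stood at 8.70, 8.09 and 8.87 in N1IC, against 9.51, 9.40 and 9.40 in WT. It was 1.85-fold lower (log2 fold change -0.89, SE 0.21), where the limma adjusted p was 0.0457 over all genes and 0.059 over all probe sets. Each call was lost in 4 of the 6 fits that left out 1 array. That of Il4ra was lost without N1IC replicate 1 or 2 or WT replicate 2 or 3, with adjusted p up to 0.0889. That of Il21r was lost without N1IC replicate 1 or any 1 WT array, with adjusted p up to 0.118. Against the WT female alone their log2 fold changes were -1.03 and -0.85, with adjusted p of 0.167 and 0.271.

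Il4ra and Il21r are next to each other on chromosome 7, with 0 annotated genes between them in RefSeq on GRCm38.p6. Il2ra and Il15ra are also adjacent among protein-coding genes, on chromosome 2, with 0 protein-coding genes and 2 predicted transcripts between them. The neighbours that follow were named with their values known. Nsmce1, a subunit of a DNA repair complex before Il4ra, had a log2 fold change of -0.25, and Gtf3c1, a transcription factor subunit after Il21r, of -0.30, and neither was called. Among the 5 measured genes on the other side of Il2ra, Pfkfb3, a regulator of glycolysis, was called, at a log2 fold change of 0.64 (adjusted p = 0.0134 by limma). Rbm17, a splicing factor between them, was not called, at -0.13. Pfkfb3 was not called with sex as a covariate (adjusted p = 0.133) or when the mean of its probe sets was used (adjusted p = 0.0704).

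**Figure D4:**
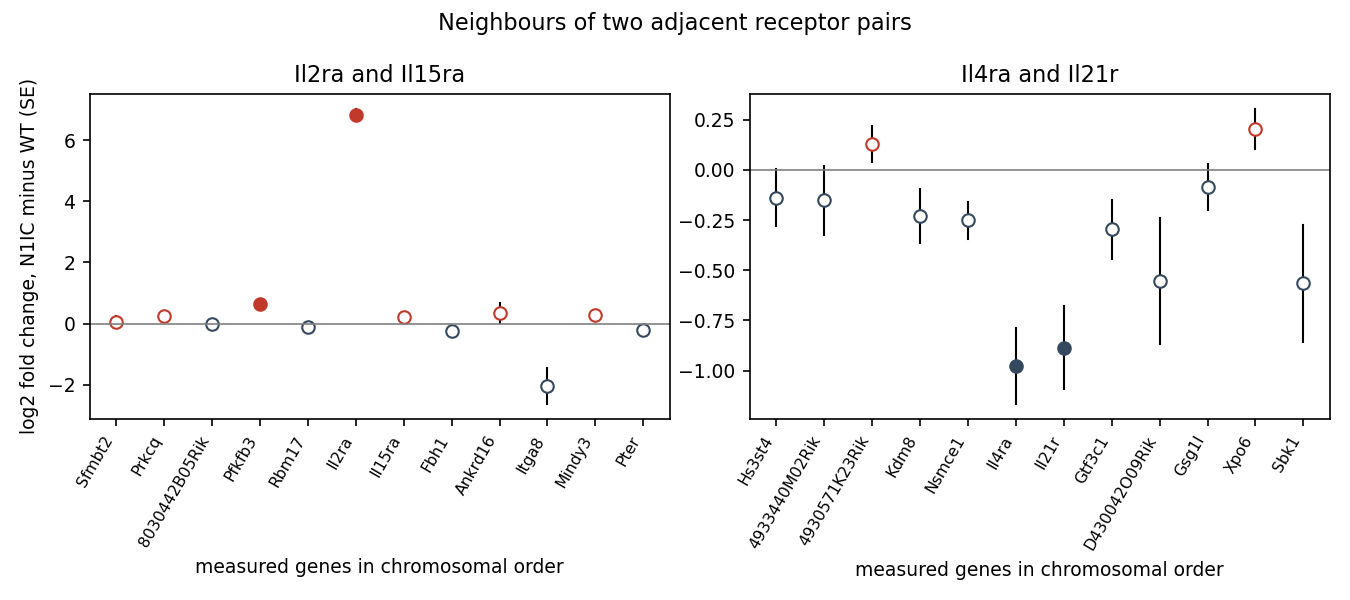
Log2 fold change, N1IC minus WT, with standard errors for the measured genes around Il2ra and Il15ra (left) and around Il4ra and Il21r (right), in chromosomal order; filled points passed the adjusted threshold over all genes. Il2ra stands alone at 6.82 beside Il15ra at 0.22, while Il4ra and Il21r lie together at -0.98 and -0.89.

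Il15ra, which presents interleukin 15 to cells that carry the beta and gamma chains, was not called. Its brighter probe set stood at 8.001, 8.03 and 8.42 in N1IC, against 8.05, 7.80 and 7.94 in WT, and the groups overlapped. The log2 fold change was 0.22 (SE 0.14, 95% interval from -0.13 to 0.56), and the limma adjusted p over all genes was 0.395. It was 0.54 (adjusted p = 0.0389) when arrays were centred on the median of the genes tested, where Il15ra was called higher, and 0.53 (adjusted p = 0.0778) after a repeated quantile normalization. The dimmer probe set gave 6.81, 7.04 and 7.66 in N1IC, against 7.39, 6.92 and 6.93 in WT, a log2 fold change of 0.09 (SE 0.25). N1IC replicate 3 was the highest array on both, and without it the dimmer probe set stood at -0.15. Il15ra can be induced by interferon, and polyIC was given to both groups. Of 8 interferon response genes measured, 1 was higher and none lower, against 3.47% and 8.31% of all genes. Without WT replicate 1 none was higher and 1 was lower. The gene called was Irf1, an interferon-induced transcription factor, at a log2 fold change of 0.94 (adjusted p = 0.0431 by limma), a call lost without N1IC replicate 1 or 3 or any 1 WT array. With sex as a covariate the Irf1 call was also lost, at 0.89. Mx1 and Oasl2, interferon-induced antiviral genes chosen with their values known, had log2 fold changes of -1.92 and -0.57 (adjusted p = 0.0565 and 0.17), and these 3 were the genes of the list with an unadjusted p under 0.05.

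Il9r, the chain for interleukin 9 in mast cells and some T cells, lay near the bottom of the intensity range. It stood at 3.46, 3.92 and 3.47 in N1IC, against 3.42, 3.42 and 3.26 in WT. All N1IC arrays lay above all WT arrays by a small margin, and the log2 fold change was 0.25 (SE 0.15, limma adjusted p = 0.356 over all genes). Its mean lay at the 4.94 percentile of all genes. With values under 32 set to 32 its difference was 0.

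The genes whose pattern over the 6 arrays was most like that of a called member were found by the root mean square difference between log2 profiles, each centred on its own mean. For Il2ra they were Dtx1, a Notch-induced ubiquitin ligase, at a distance of 0.38, Mcpt1, a mast cell protease, at 0.48, and Ptcra, which pairs with the beta chain in thymocytes, at 0.64. Their log2 fold changes were 6.34, 7.57 and 6.76, beside 6.82 for Il2ra, a likeness that follows from choosing them on the same 6 arrays. For Il4ra they were the anion transporter Slc26a6 at 0.05, the glycogen phosphorylase Pygm at 0.10 and the cytoskeletal protein Zyx at 0.10. For Il21r they were Zbed5 at 0.07, the claudin Cldn7 at 0.07 and Fchsd1 at 0.09.

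Of 8 cytokines that bind these chains, 1 was lower and none higher, against 8.31% and 3.47% of all genes. A list this short with 1 call is near the share over all genes. Il15 stood at 8.46, 8.07 and 8.93 in N1IC, against 9.95, 9.82 and 9.68 in WT. Its log2 fold change was -1.33 (adjusted p = 0.0167 by limma), a call lost without N1IC replicate 1 or WT replicate 2 at 0.0628 and 0.0527. The Il15 call was also lost with sex as a covariate, which sets N1IC against the WT female alone, at -1.33. Il7 and Il4, chosen with their values known, missed the threshold, with log2 fold changes of -1.23 and 0.88, and Il2 stood between 4.36 and 5.12 on all arrays.

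Of 8 JAK and STAT genes, 1 was lower and none higher, near the share over all genes of 8.31% lower and 3.47% higher. That was Jak3, the kinase bound to the common gamma chain, at 8.74, 8.63 and 9.16 in N1IC, against 9.82, 9.43 and 9.98 in WT. Its log2 fold change was -0.90 (adjusted p = 0.0391 by limma), lost without N1IC replicate 1 or 2 or WT replicate 1 or 3 at adjusted p up to 0.122. With sex as a covariate the Jak3 call was also lost, at a log2 fold change of -0.585. Jak1 and Stat5a, chosen with their values known, had log2 fold changes of 0.22 and 0.19 and did not pass. None of 9 adaptors and phosphatases passed in limma, and 1 had an unadjusted p under 0.05. Their brightest members, Grb2 and the phosphatase Ptpn6, had log2 fold changes of 0.04 and 0.16.

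Of 4 feedback inhibitors that STAT factors induce, 1 was higher and 2 were lower, where 3.47% of all genes were higher and 8.31% lower. Socs2 stood at 10.09, 11.13 and 10.61 in N1IC, against 11.73, 12.12 and 12.29 in WT (log2 fold change -1.44, adjusted p = 0.0281 by limma). Socs3 was lower by a log2 fold change of -0.85 (adjusted p = 0.0187), and Socs1 was higher by 0.39 (adjusted p = 0.048). Cish, an inhibitor induced by STAT5 and chosen with its values known, did not pass at -0.62. The Socs1 call was lost without any 1 of the 6 arrays, and that of Socs3 without any 1 array other than WT replicate 1. The Socs2 call was lost without N1IC replicate 1 or 3 or WT replicate 2 or 3. With sex as a covariate the calls of Socs2, Socs3 and Socs1 were lost, at log2 fold changes of -1.51, -0.97 and 0.48. Of 8 survival and cycle genes known to be raised by STAT5, 2 were lower and none higher. Bcl2, which blocks cell death, stood at 9.48, 9.58 and 9.45 in N1IC, against 11.39, 11.62 and 11.31 in WT (log2 fold change -1.94, adjusted p = 0.000605). Pim2, a survival kinase, had a log2 fold change of -1.16 (adjusted p = 0.00436), and both kept their calls in all fits that left out an array.

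Of 13 transcription factors known to act on Il2ra or Il7r, 3 were higher and 1 lower, where 3.47% of all genes were higher and 8.31% lower. Gata3, a factor of early T cells, stood at 11.28, 11.33 and 11.30 in N1IC, against 8.59, 8.60 and 8.70 in WT (log2 fold change 2.68, adjusted p = 8.8e-05 by limma). Bcl11b, which commits cells to the T lineage, rose by 2.86 (adjusted p = 0.00793), and the NF-kappaB subunit Rel by 0.86 (adjusted p = 0.0467). Foxo1, which activates Il7r in lymphocytes, stood at 8.78, 8.93 and 7.998 in N1IC, against 9.74, 9.99 and 10.26 in WT (log2 fold change -1.43, adjusted p = 0.0247). The call of Rel was lost without any 1 array other than N1IC replicate 2, and that of Foxo1 without N1IC replicate 1 or WT replicate 2 or 3. With sex as a covariate the calls of Rel and Foxo1 were lost, at log2 fold changes of 0.91 and -1.43. Of 19 other type I cytokine receptor chains measured, 2 were higher and 5 lower, with a median log2 fold change of -0.75. Il12rb2, a chain of the interleukin 12 receptor, was higher by 2.09 on the log2 scale, and its partner Il12rb1, chosen with its values known, by 1.11. Csf3r, the receptor of granulocyte colony-stimulating factor, Ghr, the growth hormone receptor, and Il27ra, a receptor of interleukin 27, were lower, at log2 fold changes of -3.70, -2.07 and -0.96. With sex as a covariate, neither interleukin 12 receptor chain was called and 3 of the 19 were lower.

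**Figure D5:**
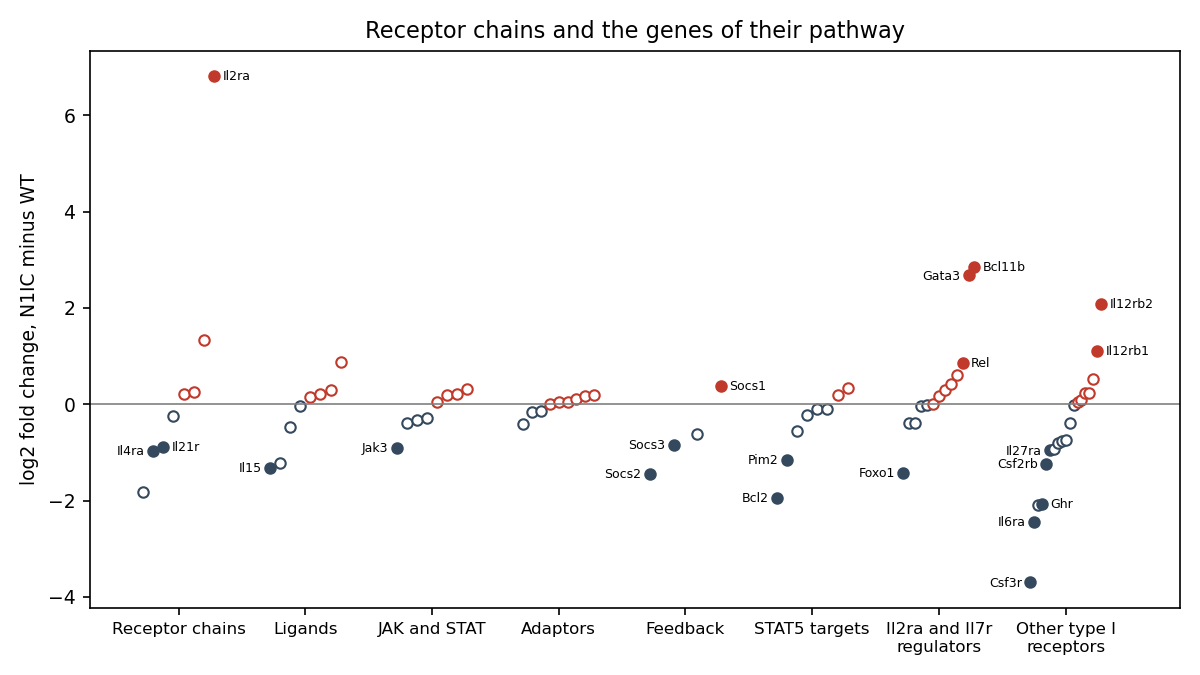
Log2 fold change, N1IC minus WT, of each measured gene of the receptor family and of 7 lists of related genes, 1 point a gene in rising order within a list; filled and named points passed the adjusted threshold over all genes. Il2ra at 6.82 lies above every other gene plotted, and the called JAK, STAT5 target and ligand genes lie below 0.

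Markers of cells that carry these receptors were counted beside them, where 3.47% of all genes were called higher and 8.31% lower. Of 12 early T-lineage genes, 10 were higher and none lower, with a summed intensity from 28870 to 35350 in N1IC and from 3283 to 5600 in WT. Of 8 mature T cell genes, 3 were higher and 1 lower. Of 7 regulatory T cell genes, 2 were higher, Ctla4 by 2.02 and Il10 by 1.78 on the log2 scale, while Foxp3, the factor that defines these cells, named after its values were seen, lay between 5.70 and 5.81 in N1IC and between 6.08 and 6.33 in WT. The Ctla4 call was lost without any 1 N1IC array or WT replicate 2, and that of Il10 without any 1 array other than N1IC replicate 3. With sex as a covariate the calls of Ctla4 and Il10 were lost, at log2 fold changes of 1.74 and 1.62. Of 9 group 2 innate lymphoid genes, 1 was higher and 1 lower, Il17rb by 3.05 and Rora by -2.56. With sex as a covariate the Il17rb call was also lost, at a log2 fold change of 2.43. Of 12 mast cell and basophil genes, 2 were higher and none lower, with a summed intensity from 11900 to 17490 in N1IC and from 2672 to 8854 in WT. The 2 were Mcpt1 and Cpa3, at log2 fold changes of 7.57 and 1.97. Bright genes such as Cpa3, at a mean log2 intensity of 12.51 in N1IC and 10.53 in WT, weigh most in that sum. The median log2 fold change of the list was 1.04. Hdc and Ms4a2, chosen with their values known, went the other way, at -1.23 and -1.02, and were not called. The part of such cells in the receptor values was not tested.

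The remaining lists mark lymphoid progenitors, which the gate can hold, and lineages such as B, myeloid and erythroid cells, whose mature forms a lineage-negative sort is meant to remove. None of 8 lymphoid progenitor genes was higher and 1 was lower, and 5 of 9 B-lineage, 1 of 11 neutrophil and monocyte and 2 of 9 dendritic genes were lower with none higher. The shares over all genes were 3.47% higher and 8.31% lower. Without WT replicate 1, 8 neutrophil and monocyte and 5 dendritic genes were lower, and Mmp8, a neutrophil collagenase named after its values were seen, stood at 6.53 on that array against 10.27 and 10.08 on the other WT arrays. Of 7 macrophage genes, 2 were higher, and none of 5 erythroid genes passed in limma, where 1 had an unadjusted p under 0.05. Kit, a gene of the gate chosen with its values known, stood at 11.57, 11.51 and 11.45 in N1IC, against 11.94, 11.58 and 11.76 in WT, and Ly6a, which encodes Sca1, was not analysed here. Of the genes that define the fraction or its subsets, 4 of 6 were lower, against 2 without N1IC replicate 2 or WT replicate 1 and 1 without WT replicate 3 or with sex as a covariate. Notch1, the gene targeted, averaged 12.93 ± 0.11 in N1IC and 12.19 ± 0.16 in WT (SD, n = 3), though where its probe set lies relative to N1-IC is not known here. Median intensity was between 89.0 and 92.4 on the 6 arrays. Pearson's r over probe sets was between 0.968 and 0.975 across the groups and at least 0.985 within them. With 3 arrays a group, precision is limited by their number. Xist matched the sex labels on all 6 arrays.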

How the data were processed

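RNA of 3 N1IC and 3 WT LSK samples was amplified and hybridized to 1 Affymetrix array each, per the labels' protocols. The deposited intensity values are on a linear scale and were made by the authors with RMA, per the submitters' processing notes, with version and settings not given in the sources used here. The linear scale was settled from the range of the values, and log2 was taken before any test. Of 45101 probe sets, 64 controls were left out, 34945 had 1 gene symbol, 932 had several and 9160 had none. Symbols went through gene IDs of RefSeq on GRCm38.p6, which held 34741 of those with 1 symbol.

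The main fit was limma 3.58.1 in R 4.3.3 (lmFit, eBayes, two-sided, no covariate) with 4 residual and 2.05 prior degrees of freedom, on the brightest probe set of each of 18193 genes and, separately, on each of 45037 probe sets. P-values were adjusted by Benjamini-Hochberg over each whole table, with a threshold of 0.05. Log2 fold changes are N1IC minus WT. Simulated data for N1IC against WT held 18193 genes, of which 100 were shifted at each size. There the fit recovered 59% of genes shifted by 1 log2 unit and 90% of genes shifted by 2. The fit to the real arrays called 2144 genes, and recovery depends on the share of genes that change. These percentages therefore hold for the simulated setting only and do not give the power of the real comparison. An exact permutation of 3 against 3 arrays cannot go below 0.1, so none was used. The labels describe each sample as from a mouse. The p-values set the difference between the groups against the spread between these samples. The labels name no batch. The titles of WT replicates 1 and 2 end in the letter b, unlike those of the other arrays, and what it stands for is not known here.

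The members and gene lists were chosen with earlier results of these data known. Genes named are all members, and the 3 genes nearest to each called member outside the X and Y chromosomes. From each pathway list up to 4 called genes are named, and up to 3 from each marker list, by smallest p (otherwise the 2 brightest). The text marks other genes as chosen with their values known, and Notch1 is given because N1-IC is its inner domain. Alternatives were a replicate block, sex as a covariate, female mice only, other scalings, filters, floors, priors, weights and thresholds, the mean of a gene's probe sets, and leaving out each array. Plots were drawn with matplotlib 3.10.9. Protein sequences were not used here.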

Additional observations from a re-analysis of the deposited data

How the results depend on the processing

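Il2ra was called higher under every alternative run, with log2 fold changes from 6.68 to 7.14, and 1 receptor gene was called higher in most of them. It was 2 at a threshold of 0.1, with the brighter 40% of genes and with the mean of a gene's probe sets, each time with Il7r added, and 4 (Il2ra, Il7r, Il9r and Il15ra) when arrays were centred on the median of the genes tested, a setting chosen after seeing the data. That centring moved the median of all genes by 0.32, to 0.31, and gave 5359 genes higher and 1012 lower, where the unchanged scaling gave 632 and 1512; a repeated quantile normalization gave 948 and 1093. Between 1 and 2 receptor genes were higher and 0 and 2 lower when 1 array was left out, and 0 to 4 receptor probe sets were lower, the highest without WT replicate 1, where both Il2rb probe sets were added.

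The 2 lower receptor genes became 1 with the replicate block, with female mice only (Il2rb in their place), with the repeated quantile normalization, with the centring on genes tested and with the brighter 40% of genes, which no longer held Il21r. They became 0 with sex as a covariate, with values under 32 set to 32 and at a threshold of 0.01. The 2 lower probe sets became 1 with the replicate block and 0 with sex as a covariate, with the floor at 32 and at 0.01. The cause was not tested, except that the stricter threshold and the smaller gene set follow from their construction. Those 2 fits, adjusted for sex or restricted to females, set N1IC against WT replicate 2 alone and do not measure an effect of sex.

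Over all genes the replicate block gave 357 higher and 936 lower, sex as a covariate 116 and 333, female mice only 142 and 504, the floor at 32 470 and 1036, the brighter 40% of genes 471 and 857, a threshold of 0.01 209 and 536, and a threshold of 0.1 1038 and 2211. Leaving out 1 array gave 332 to 509 higher and 835 to 1420 lower. Among the gene lists, leaving out 1 array moved some small counts by more than 1.5 times: macrophage genes higher ranged from 0 to 2, dendritic genes lower from 0 to 5, regulatory T genes higher from 0 to 2, mature T genes higher from 1 to 3 (1 without N1IC replicate 1) and mast cell genes higher from 2 to 4 (4 without WT replicate 3). Those fits on the lists were added after seeing the data. With sex as a covariate, the calls in the ligand, JAK and STAT, feedback and interferon response lists were all lost. The same held for the regulatory T, natural killer, macrophage and dendritic lists. Correlations between the deviations of same-numbered arrays from their group means were -0.09, -0.09 and 0.10. A differently numbered pair, N1IC replicate 2 and WT replicate 1, reached 0.17. Deviations from a mean of 3 arrays are tied to each other, so these values cannot decide whether the numbers pair the arrays.

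Differences near 0 changed sign in a few fits, as did those of Ermap and Klf1, which were larger but not called. With the centring on genes tested Crlf2 stood at 0.068, Rbm17 at 0.19, Nsmce1 at 0.068, Gtf3c1 at 0.024 and Kit at 0.075. Over the fits that left out 1 array the dimmer Il15ra probe set ranged from -0.153 to 0.269, below 0 without N1IC replicate 3, and Grb2 from -0.008 to 0.066, below 0 without WT replicate 3. When adjusted for sex or restricted to females, the brightest erythroid genes, Ermap and Klf1, stood at -0.12 and -0.17. With all arrays and no covariate they stood at 0.67 and 0.62. Without detection calls, dim probe sets such as that of Il9r set no limit on expression.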
